A study of Mus musculus with 2 samples.

Results

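The genes described here encode transcription factors that give cells positional identity. They are the Hox genes of the 4 Hox clusters, further homeobox families, the Pax family and the T-box family Tbx. The further homeobox families are Dlx, Msx, Six-type, Lhx, Pitx, Meis, Pbx, Prrx, Barx, Irx, Alx and En. The families were chosen with earlier results of these data known. Within them the genes were taken by symbol, as every gene whose probe set has 1 symbol of these families in the platform annotation. That gave 80 genes read by 100 probe sets, of 8251 genes read by 10833 probe sets in all. Of the 80 genes, 31 are Hox genes and 49 belong to the other families, among them the antisense transcript Dlx1as and the transcript Dlx6os2. A further 3 probe sets carry several symbols of which at least 1 matches, and these were left out.

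Gene expression was compared between K5-/- skin, from newborn mice that lack keratin 5, and wildtype skin, from newborn wildtype mice, in a mouse model of epidermolysis bullosa simplex, a blistering disorder of the basal epidermis. RNA of 6 animals per genotype was pooled, and each pool was hybridised to 1 array, so the series holds 2 arrays and no replicates. The strain, the body site and the exact age of the pups, and the design of the deleted allele, are not given in the sources used here. While the labels call the source epidermis, the protocol describes whole skin as the frozen tissue, and 19 of 20 dermal matrix genes and 19 of 22 skeletal muscle genes lay above the detection floor. No test is possible with 1 array per group: each result is therefore a pair of signals, their log2 ratio (knockout over wild type) or a count past a fixed fold, and compares the 2 arrays only.

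Hox genes lie in 4 chromosomal clusters, and the number in the name gives the gene's order along the cluster, which follows the order of its expression along the body from head to tail. Dermal fibroblasts keep a Hox code of their body site, and Meis and Pbx proteins bind DNA together with Hox proteins. The Dlx and Msx factors act in the ectoderm and in hair and tooth formation, the Tbx factors in limb and dermal patterning, and the Pax and Six-type factors mainly in sense organs, kidney, pancreas, muscle and pigment cell precursors.

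Of the 80 patterning genes, 41 were measured, that is, their brightest probe set lay above a floor of 246.7 signal units (the 40th percentile of all values) on at least 1 array. That is 51.2% of them, against 72.4% of all genes on the array. The count depends on the floor, and was 63 at its 25th and 17 at its 60th percentile. Both arrays were above the floor for 34 genes, the knockout array alone for 7 and the wild type array alone for 0. In the 34 genes, the median log2 ratio was 0.12, with 23 genes higher and 11 lower in knockout skin. Of the 3891 genes of the series above the floor on both arrays and in the same range of mean signal, 56.4% were higher in the knockout, with a median of 0.06, and over all measured genes the share higher was 53.9%. The split was 18 higher and 16 lower with quantile normalization, and 19 and 15 with a lowess correction, when 49.3% and 50.1% of those other genes were higher. Each of the 7 genes that only the knockout array placed above the floor has a positive ratio by construction, and their ratios are lower bounds.

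**Figure D1:**
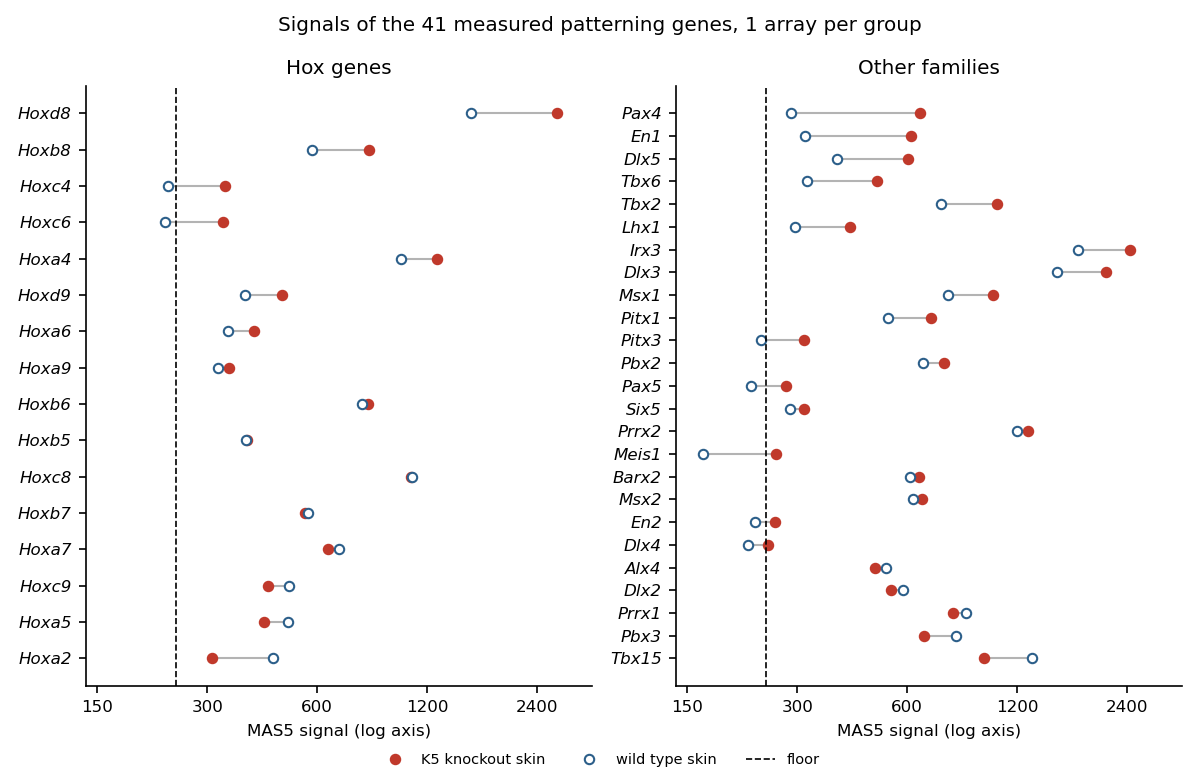
MAS5 signals (horizontal log axis) of the 41 measured patterning genes, Hox genes on the left and the other families on the right, with filled points for K5 knockout skin, open points for wild type skin, 1 array each, and a dashed line at the floor of 246.7. Most pairs of points lie close together, and the widest gaps above the floor are those of Pax4, En1 and Hoxd8.

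A difference of at least 2-fold was found for 1 of the 41 measured genes, higher in the knockout, where 1.54% of all 5976 measured genes were at least 2-fold higher and 2.24% differed 2-fold in either direction; 0 of the 41 were at least 2-fold lower, where the share over all measured genes was 0.703%. At least 1.5-fold higher were 5 genes, Pax4, En1, Hoxd8, Dlx5 and Tbx6, which is 12.2% of the 41 against 7.63% of all measured genes. All 5 were above the floor on both arrays, so they are 14.7% of the 34 such patterning genes, against 8.58% of the 3891 such genes in the same signal range. At least 1.5-fold lower were 0 of the 41, against 5.27% of all measured genes, and 0 of the 34, against 5.17% of the genes in the same signal range. The split of 5 higher and 0 lower was 3 and 1 with quantile normalization or the lowess correction, 3 and 0 with a pseudocount in place of the floor, 11 and 4 at the 25th percentile floor and 1 and 0 at the 60th. Over all measured genes, the shares higher and lower were 6.09% and 5.78% with quantile normalization and 6.07% and 5.79% with the lowess correction. They were 4.07% and 3.01% with the pseudocount, 11.2% and 6.37% at the 25th percentile floor and 5.11% and 4.64% at the 60th. The shares of the patterning genes rest on few genes, and 12.9% of all measured genes were past 1.5-fold in either direction in the main setting. The only estimate of technical error in the data is how far probe sets of a gene differ, with a standard deviation of 0.30 on the log2 scale over 838 genes. A log2 difference of 0.60, double that SD, is 1.51-fold, so Dlx5 and Tbx6 lie just beyond it, and differences among animals, pools or hybridisations are not part of it.

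**Figure D2:**
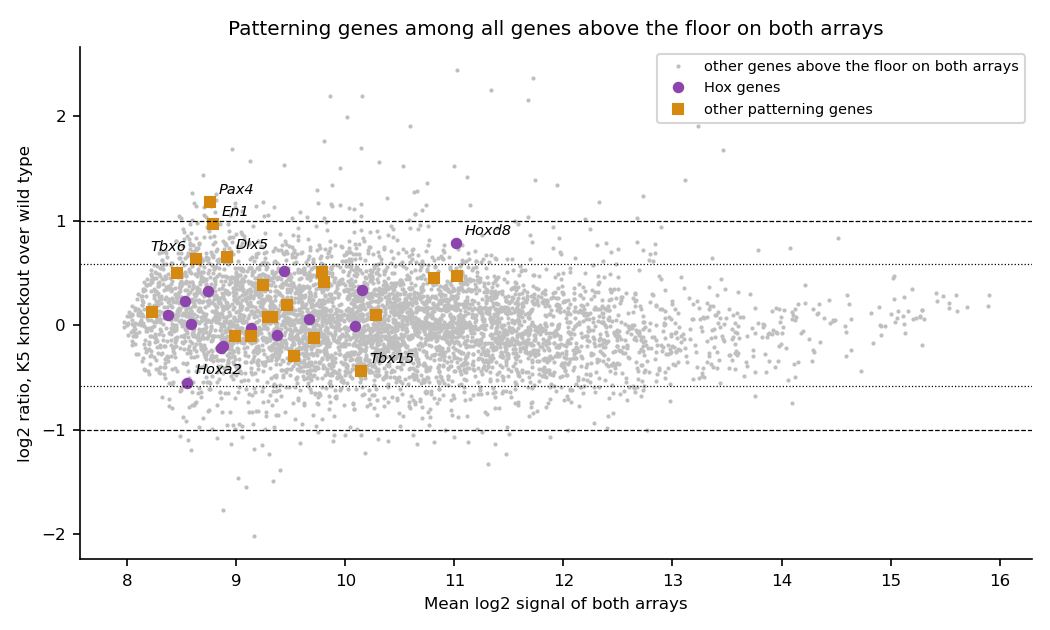
The log2 ratio of knockout over wild type (vertical) against the mean log2 signal of both arrays (horizontal) for all genes above the floor on both arrays, with Hox genes as purple circles and other patterning genes as orange squares; dashed lines mark 2-fold and dotted lines 1.5-fold. The patterning genes sit in the dim to middle part of the range, 1 of them, Pax4, is above the upper dashed line, and Hoxa2 is the lowest at -0.55.

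Proximal promoters were available for 3 of the 5 genes that were at least 1.5-fold higher. They are shown because these are the members with the widest difference for which the RefSeq promoter table (build GRCm38.p6) has an entry; each runs from 250 bases before to 50 bases after the annotated start, 5′ to 3′ on the gene's strand. Capitals mark matches, on either strand, to 5 motifs: the homeodomain core TAATTA, the TATA box TATAAA, the CCAAT box CCAAT, the GC box GGGCGG and the Hox-Pbx site TGATNNAT.
En1, chr1:120602237-120602536, plus strand: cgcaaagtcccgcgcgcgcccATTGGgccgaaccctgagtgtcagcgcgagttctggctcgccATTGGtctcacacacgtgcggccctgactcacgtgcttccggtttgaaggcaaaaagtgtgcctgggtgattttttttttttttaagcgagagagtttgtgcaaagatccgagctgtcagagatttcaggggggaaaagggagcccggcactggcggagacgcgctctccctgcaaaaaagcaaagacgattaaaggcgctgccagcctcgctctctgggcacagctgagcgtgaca
Hoxd8, chr2:74704365-74704664, plus strand: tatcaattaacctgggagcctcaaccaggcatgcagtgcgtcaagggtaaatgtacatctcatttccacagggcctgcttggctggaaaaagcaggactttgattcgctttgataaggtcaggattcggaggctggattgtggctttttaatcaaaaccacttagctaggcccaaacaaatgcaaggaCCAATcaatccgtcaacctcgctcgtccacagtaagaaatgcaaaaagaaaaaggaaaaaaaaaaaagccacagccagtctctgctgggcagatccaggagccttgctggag
Tbx6, chr7:126781233-126781532, plus strand: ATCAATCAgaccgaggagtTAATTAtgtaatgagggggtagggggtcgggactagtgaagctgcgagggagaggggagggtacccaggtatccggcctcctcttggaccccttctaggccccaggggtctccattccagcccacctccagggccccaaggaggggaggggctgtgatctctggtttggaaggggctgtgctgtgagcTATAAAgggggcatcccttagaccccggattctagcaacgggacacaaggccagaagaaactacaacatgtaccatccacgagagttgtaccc

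The En1 window holds 2 CCAAT matches and the Hoxd8 window 1, while the Tbx6 window holds 1 match each to the homeodomain core, the TATA box and the Hox-Pbx site. None of the 5 motifs is in all 3 windows. Of the 80 genes, 53 have a promoter in the table. CCAAT was found in 52.8% of these 53 and in 37.9% of the 27025 promoters of all genes, GGGCGG in 50.9% and 35.9%, TAATTA in 7.55% and 5.31%, TGATNNAT in 7.55% and 9.04%, and TATAAA in 11.3% and 14.2%. The patterning gene windows had a median GC content of 59.3%, against 52.7% for all genes. These letter counts describe the windows only.

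Which Hox genes were measured differed along the clusters, and depended on the floor. Of the 14 genes of paralog groups 4 to 8, 12 were measured, against 1 of 5 genes of groups 1 to 3 and 3 of 12 genes of groups 9 to 13. A 25th percentile floor gave 14 of 14, 4 of 5 and 8 of 12, and a 60th percentile floor 6, 0 and 0, in the same order of groups. Of the 12, Hoxa4, Hoxa6 and Hoxb8 were measured only through a probe set of the suffix r, described below. Hoxc4 and Hoxc6 were measured on the knockout array alone. With plain probe sets, 12 Hox genes were measured in place of 16. The 4 measured genes outside groups 4 to 8 were Hoxa2, Hoxa9, Hoxc9 and Hoxd9, and the 2 genes of groups 4 to 8 at the floor were Hoxb4 and Hoxc5. By cluster, 6 of 10 Hoxa genes (chromosome 6), 4 of 9 Hoxb genes (chromosome 11), 4 of 5 Hoxc genes (chromosome 15) and 2 of 7 Hoxd genes (chromosome 2) were measured. The 16 measured Hox genes had a median log2 ratio of 0.08, with 10 higher and 6 lower; in the 14 above the floor on both arrays 8 were higher and 6 lower, but 5 and 9 with quantile normalization and 6 and 8 with the lowess correction. A signal at the floor does not show that a gene was silent: the basal keratin genes Krt5 and Krt14, abundant in skin, were at the floor too.

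**Figure D3:**
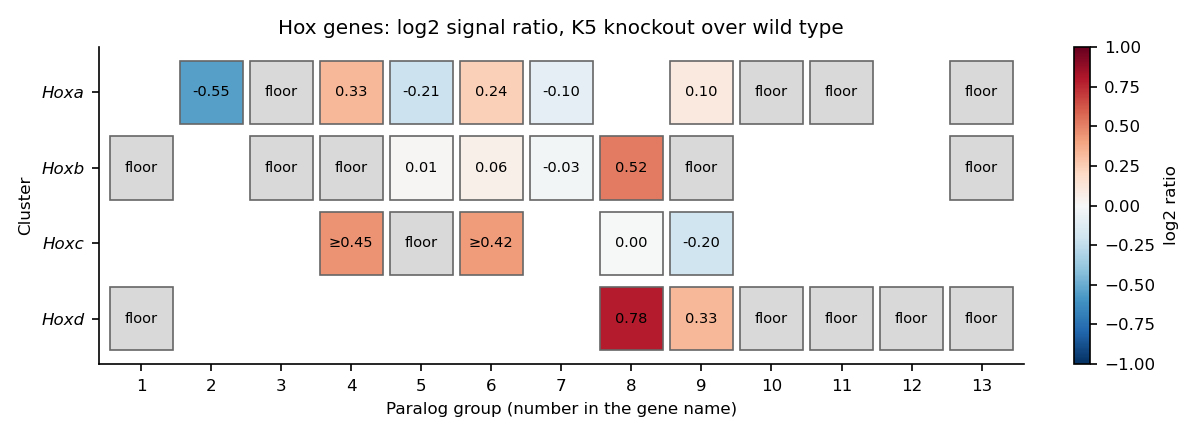
Hox genes by cluster (rows) and paralog group (columns), coloured and labelled by the log2 ratio of knockout over wild type; grey cells marked floor were at the floor on both arrays, the sign ≥ marks a lower bound, and positions without a cell are not covered here. At this floor, the 40th percentile, most cells with a ratio lie in groups 4 to 9, and 0.78 for Hoxd8 and -0.55 for Hoxa2 are the extremes.

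In the Hoxa cluster the measured genes were divided in the main setting, 3 higher and 3 lower. Hoxa2, which patterns the second branchial arch and the hindbrain, had a signal of 309.9 in knockout skin and 453.5 in wild type skin, a log2 ratio of -0.55 and the lowest of all measured patterning genes. It passed the 1.5-fold mark with quantile normalization (-0.69) and with the lowess correction (-0.66), and was at -0.33 with a pseudocount in place of the floor. The direction of its neighbours in the cluster depended in part on the setting and the probe set. Hoxa5, a regulator of the cervical and upper thoracic axis, read 430.5 in knockout and 499.6 in wild type skin (-0.21), and Hoxa7 read 642.8 in knockout and 687.5 in wild type skin (-0.10). Hoxa9 read 343.9 in knockout and 320.6 in wild type skin (0.10), but was at -0.044 with quantile normalization and -0.011 with the lowess correction. Hoxa5 was then at -0.32 and -0.33, and Hoxa7 at -0.18 with each. With these corrections every plain probe set of the cluster above the floor was thus lower in knockout skin. Hoxa4 and Hoxa6 stayed higher with both.

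Hoxa4 and Hoxa6 were higher, but each through a probe set of the suffix r, which marks a set that broke the array's probe selection rules. Hoxa4 read 1283 in knockout and 1017 in wild type skin (0.33), while its 3 other probe sets were at the floor on both arrays, with signals of at most 150.2. Hoxa6 read 402.6 in knockout and 341.7 in wild type skin (0.24), and its other probe set was at the floor as well. The posterior genes Hoxa10, Hoxa11 and Hoxa13, which act in the hindquarters and the distal limb, were at the floor on both arrays, as was Hoxa3.

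The Hoxb cluster was almost level between the pools from Hoxb5 to Hoxb7. Hoxb5 read 386.6 in knockout skin and 382.8 in wild type skin (log2 ratio 0.01), Hoxb6 read 826.8 in knockout and 795.0 in wild type skin (0.06), and Hoxb7 read 556.3 in knockout and 566.0 in wild type skin (-0.03). All 3 ratios are far inside the spread between probe sets of a gene. Hoxb8, the next gene of the cluster and a trunk gene known in the mouse for excessive grooming when mutated, read 832.9 in knockout and 580.2 in wild type skin, a log2 ratio of 0.52. It too rests on an r probe set, and its other probe set was at the floor. Hoxb1, Hoxb3, Hoxb4, Hoxb9 and Hoxb13 were at the floor on both arrays.

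In the Hoxc cluster, Hoxc8, a marker of thoracic identity, had nearly the same signal on both arrays, 1089 in knockout skin and 1092 in wild type skin (log2 ratio -0.0039). Hoxc4 and Hoxc6 were above the floor in the knockout alone. Hoxc4 read 336.1 in knockout and 235.0 in wild type skin, at least 1.36-fold higher, and Hoxc6 read 330.5 in knockout and 230.2 in wild type skin, at least 1.34-fold higher. Hoxc9 read 439.4 in knockout and 504.2 in wild type skin (-0.20), from an f probe set, which may also bind related transcripts. Hoxc5, which lies between Hoxc4 and Hoxc6, was at the floor on both arrays.

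Hoxd8 had the highest ratio of the Hox genes. Its brighter probe set read 2723.5 in knockout skin and 1582 in wild type skin, 1.72-fold higher, and its second probe set read 1557 in knockout and 1272 in wild type skin, 1.22-fold higher. Both sets gave the same direction but different sizes, and their mean log2 ratio was 0.54, short of 1.5-fold. Of the settings that kept the brighter set, each left Hoxd8 at least 1.5-fold higher, from 0.70 with the pseudocount to 0.79 with quantile normalization or the lowess correction. Hoxd9, the next gene, read 479.8 in knockout and 381.3 in wild type skin (0.33). Hoxd1 and the posterior genes Hoxd10, Hoxd11, Hoxd12 and Hoxd13 were at the floor on both arrays.

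Of the genes of proteins that bind DNA with Hox factors, Pbx2, Pbx3 and Meis1 were measured. Pbx2 read 758.9 in knockout and 661.7 in wild type skin, a log2 ratio of 0.20. Pbx3 was lower with each of its 3 probe sets, which gave log2 ratios of -0.29, -0.32 and -0.07; the brightest read 667.4 in knockout and 815.6 in wild type skin. Meis1, read by 1 probe set of the suffix s, gave 261.7 in knockout and 165.1 in wild type skin. It lay above the floor in the knockout alone, at least 1.06-fold higher, which is a lower bound. With the floor at the 25th percentile its log2 ratio was 0.66. With the lowess correction it was -0.017, and with quantile normalization Meis1 was at the floor on both arrays. Meis2 and Meis3 were at the floor on both arrays, with signals of 166.4 and 198.9 in knockout skin, against 90.2 and 138.9 in wild type skin; at the 25th percentile floor Meis2 was at 0.88.

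Of the genes that pattern the ectoderm and its appendages, Dlx3, Dlx5 and Msx1 were higher in knockout skin and Dlx2 and Msx2 were close to level. Dlx3, which drives terminal differentiation of keratinocytes and hair formation, read 2103 in knockout and 1541 in wild type skin (log2 ratio 0.45). Dlx5, a regulator of bone and branchial arch development, read 605.1 in knockout and 384.6 in wild type skin, 1.57-fold higher. It fell short of 1.5-fold with quantile normalization (0.54), the lowess correction (0.54) and the pseudocount (0.43). Dlx2 read 542.7 in knockout and 584.0 in wild type skin (-0.11). Dlx4, with 249.1 in knockout and 220.2 in wild type skin, lay just above the floor in the knockout alone, a bound of 0.01.

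The Dlx genes lie in pairs on the chromosome, and the pairs were not read alike: Dlx6, the partner of Dlx5, gave 14.9 in knockout and 14.8 in wild type skin, and Dlx1, the partner of Dlx2, gave 15.6 in knockout and 13.7 in wild type skin. Msx1, which acts in tooth and limb development, read 1033 in knockout and 776.3 in wild type skin (log2 ratio 0.41). Msx2, needed for the hair cycle, read 660.0 in knockout and 623.8 in wild type skin (0.08), with values from -0.0021 to 0.08 over all settings. Barx2, a homeobox gene of the hair follicle and of muscle, read 645.5 in knockout and 609.4 in wild type skin (0.08). On these arrays 14 of 15 measured hair follicle markers were higher in the knockout, 1 of them, Krt34, by construction. The median of the 15 was 0.50 on the log2 scale, and their part in the Dlx and Msx values was not tested.

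En1 was 1.95-fold higher in knockout skin, with a signal of 616.7 against 315.8 in wild type skin. En1 encodes engrailed-1, which specifies the ventral ectoderm of the limb and, in mouse back skin, marks a lineage of dermal fibroblasts. Its log2 ratio was 0.97. It was 0.84 with quantile normalization, 0.85 with the lowess correction and 0.62 with the pseudocount, each at least 1.5-fold. The other alternatives that gave a value return the main ratio by construction. At the 60th percentile floor En1 was at the floor on both arrays. En2, the paralog known from the midbrain and cerebellum, read 260.3 in knockout and 230.0 in wild type skin, at least 1.06-fold higher. En1 is read by 1 probe set, so no second reading on these arrays bears on it. Dermal fibroblast and matrix markers, 13 of 19 higher in the knockout, had a median log2 ratio of 0.27, and 0.071 when probe sets of a gene were averaged; their part in the En1 value was not tested.

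Pax4 had the highest ratio of all 41 genes, 2.27-fold, with 652.0 in knockout skin and 287.7 in wild type skin. It encodes a factor of pancreatic beta cell development. It too is read by 1 probe set; its log2 ratio was 1.18, and 0.75 with the pseudocount, which is under 2-fold. At the 60th percentile floor Pax4 was at the floor on both arrays. Pax5, the B cell factor, was above the floor in the knockout alone, with 279.7 in knockout and 223.7 in wild type skin. The other 6 Pax genes stayed at the floor, among them Pax6 of the eye, Pax8 of the thyroid and kidney, and Pax3 of muscle and pigment cell precursors. Pax3 lay just under the floor in the knockout, with 244.3, against 89.1 in the wild type.

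Of the measured T-box genes, Tbx2 and Tbx6 were higher in knockout skin and Tbx15 was divided between probe sets. Tbx2, a repressor that acts in limb and heart development, was higher with both of its measured probe sets. The brighter set read 1056 in knockout and 742.0 in wild type skin (log2 ratio 0.51), and the second read 339.9 in knockout and 253.1 in wild type skin (0.43). Tbx6, which specifies paraxial mesoderm in the embryo, read 495.5 in knockout and 319.4 in wild type skin, 1.55-fold higher, but 0.52 or less on the log2 scale with quantile normalization, the lowess correction or the pseudocount.

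Tbx15, which sets the boundary between dorsal and ventral skin in the mouse, was divided among its 3 probe sets. The brightest read 973.2 in knockout skin and 1319 in wild type skin, a log2 ratio of -0.44. The second read 705.7 in knockout and 602.4 in wild type skin (0.23), and the dimmest read 308.6 in knockout and 204.1 in wild type skin, a bound of 0.32. The mean over the 3 was 0.04, so no direction can be given for Tbx15. Tbx3, known for mammary gland and limb development, was at the floor on both arrays.

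Of the further genes of limb and mesenchymal patterning, Prrx1, Prrx2 and Alx4 were near level and Pitx1 was higher in knockout skin. Prrx1, a marker of limb and dermal mesenchyme, read 803.3 in knockout and 872.7 in wild type skin (log2 ratio -0.12), and its paralog Prrx2 read 1285 in knockout and 1199 in wild type skin (0.10). Alx4, a factor of the anterior limb bud and the skull, read 489.9 in knockout and 524.6 in wild type skin (-0.10). Pitx1, which gives hindlimb identity, read 696.7 in knockout and 531.6 in wild type skin (0.39). At the 60th percentile floor its value was a bound of 0.08. Pitx3, known from the lens and dopamine neurons, read 312.2 in knockout and 238.0 in wild type skin, at least 1.27-fold higher.

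Irx3, a homeobox gene of the Iroquois family, read 2444 in knockout and 1766 in wild type skin (log2 ratio 0.47). It was at 0.42 with the pseudocount, 0.46 with quantile normalization and 0.47 with the lowess correction. The other alternatives return its main ratio by construction. Lhx1, a LIM homeobox factor of the head organiser and the kidney, read 418.6 in knockout and 295.2 in wild type skin (0.50), while the other 5 Lhx genes were at the floor on both arrays. Of the Six-type genes, Six5 alone was measured, with 313.1 in knockout and 286.0 in wild type skin (0.13). Six2, Six3, Six4 and Six6, factors of kidney, forebrain, muscle and eye, were at the floor. So were Lhx3, Lhx5, Lhx6, Lhx8 and Lhx9, Pax1, Pax2 and Pax9, Msx3, Barx1, Dlx1as and Dlx6os2. Over all 39 patterning genes at the floor on both arrays, signals ran from 6.10 to 244.3 in the knockout and from 7.40 to 224.7 in the wild type.

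The regulators of Hox genes were examined as lists. Here and in the lists that follow, counts of genes higher stand beside 53.9% over all measured genes. Counts past 1.5-fold stand beside 7.63% higher and 5.27% lower over all measured genes. Each list gene with several probe sets, among them Kmt2a, Tcf7l1 and Zeb1, is given by its brightest one alone. In these lists, a gene above the floor on 1 array alone enters at its bound, with a direction set by construction. Polycomb proteins keep Hox genes silent where they are not used, and trithorax and MLL proteins keep them active. Of 18 measured Polycomb genes, 10 were higher and 8 lower in the knockout, with a median log2 ratio of 0.0032, against 0.04 for all measured genes. Past 1.5-fold, 1 was higher and 1 lower. Ezh1, a histone methyltransferase of the complex, read 1128 in knockout and 661.9 in wild type skin (0.77), and the histone binding subunit gene Rbbp4 read 1964 in knockout and 2957 in wild type skin (-0.59). The core subunit genes Ezh2 and Bmi1 had log2 ratios of -0.18 and -0.21. Of 7 measured trithorax and MLL genes, 3 were higher and 4 lower, with a median of -0.25. Past 1.5-fold, 1 was higher and 2 were lower. Kmt2a, which encodes MLL1, read 1107 in knockout and 699.1 in wild type skin (0.66). The complex subunit gene Ash2l read 167.9 in the knockout, under the floor, and 772.1 in the wild type, at least 3.13-fold lower. Kdm6a, a demethylase gene on the activating side, was at -0.61.

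Pathways that set Hox and Msx expression in development were divided as well. Of 9 measured genes of retinoic acid signalling, 5 were higher and 4 lower, with a median log2 ratio of 0.04. Past 1.5-fold, 2 were higher and 1 lower: the receptor gene Rarg was at 0.63, the retinaldehyde reductase gene Dhrs3 at 0.70 and the binding protein gene Crabp1 at -0.66. In the BMP list, 8 of 14 measured genes were higher, with a median of 0.02. Of the 14, 2 were above the floor on the knockout array alone, and the median was -0.0089 over the 12 above it on both arrays. The 2 members past 1.5-fold were lower, 2 of 14 where 5.27% of all measured genes were, the activin antagonist gene Fst with 605.7 in knockout and 1228 in wild type skin (-1.02) and the ligand gene Bmp7 with 1091 in knockout and 1990 in wild type skin (-0.87). Of the 10 hedgehog genes, 0 passed 1.5-fold in either direction, where 12.9% of all measured genes did, so that in a list of this size a count of 0 says little. Their median was 0.05, against 0.04 for all measured genes, and the ligand gene Shh was at 0.05 and its target Gli1 at -0.0080. Of the 10, 2 were above the floor on the knockout array alone, and the median was 0.026 over the 8 above it on both arrays.

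Of 27 measured Wnt pathway genes, 19 were higher and 8 lower, with a median log2 ratio of 0.22, and 0.014 over the 14 genes above the 60th percentile floor. Of the 27, 4 were above the floor on the knockout array alone, so they are higher by construction. The median was 0.13 over the 23 above it on both arrays. Past 1.5-fold, 1 of the 27 was higher and 2 were lower. The transcription factor gene Tcf7l1 was at 0.65, and the ligand genes Wnt6 and Wnt4 were at -0.96 and -0.74. Of 11 measured cofactor genes of Six-type, Pax and LIM factors, 7 were higher, with a median of 0.12. The only 1 past 1.5-fold was Lmo1, a LIM-only protein gene, which read 1851 in knockout and 4343 in wild type skin (-1.23). Homeobox genes outside the families above had a median of 0.22 over 20 measured of 58, with 12 higher and 8 lower, but -0.0074 with the 60th percentile floor. Of the 20, 3 were above the floor on the knockout array alone and 1 on the wild type array alone. Past 1.5-fold, 4 of the 20 were higher and 1 lower. The genes past 1.5-fold with the highest ratios were Zfhx3 (0.97), the mesenchymal repressor gene Zeb1 (0.77) and Hlx (0.65), and Tgif1, a TGF-beta corepressor gene, was at -0.65.

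**Figure D4:**
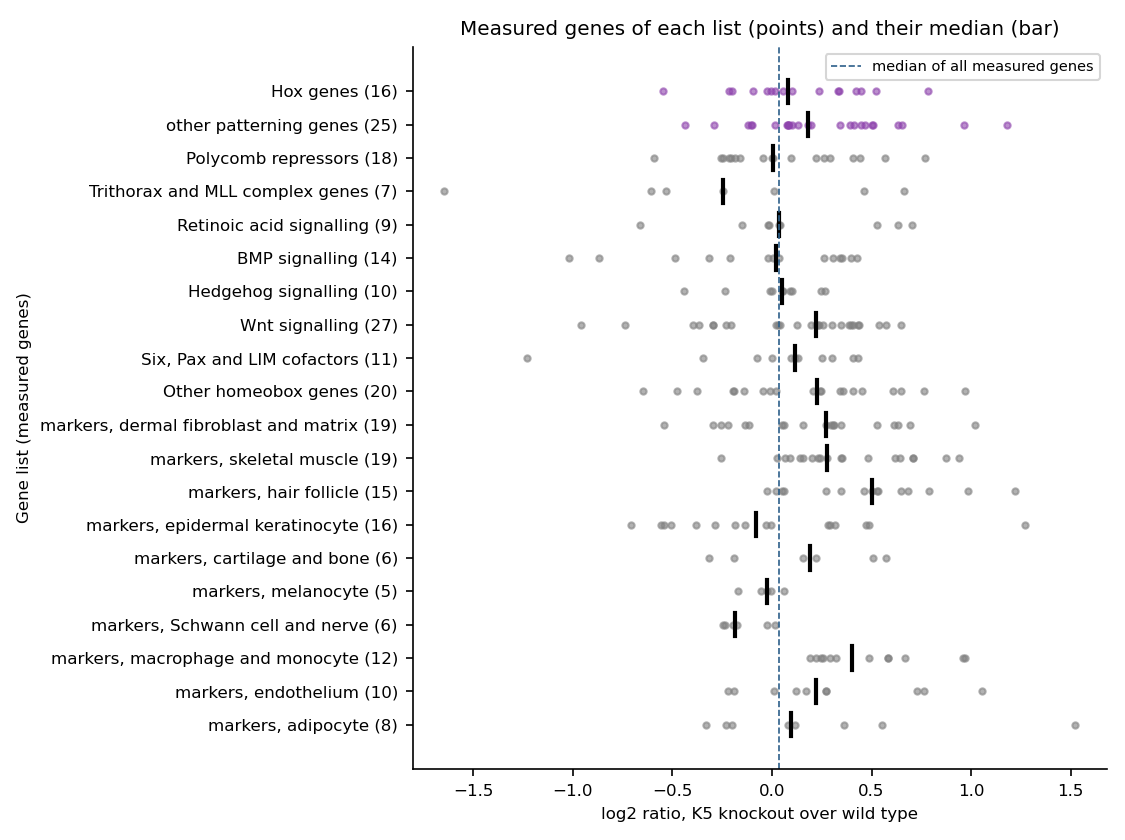
The log2 ratio of knockout over wild type (horizontal) of each measured gene of each list (points, with the number of measured genes in brackets; genes above the floor on 1 array are drawn at their bound) and the list's median (black bar), with a dashed line at the median of all measured genes. Hox genes and other patterning genes spread over both sides of the line, with medians of 0.08 and 0.18, while hair follicle and macrophage markers have medians of 0.50 and 0.40.

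Marker signals of several cell types also differed between the arrays, and their part in the values above was not tested. The counts below stand beside 53.9% of all measured genes that were higher in the knockout. In bulk tissue, fewer cells of a type and less RNA per cell cannot be told apart. Of 15 measured hair follicle markers 14 were higher, with a summed signal of 33388 in knockout and 24370 in wild type skin. All 12 measured macrophage and monocyte markers were higher (17855 in knockout and 12776 in wild type skin), as were 18 of 19 skeletal muscle markers (132094 in knockout and 109890 in wild type skin). Dermal fibroblast and matrix markers were higher in 13 of 19, with a median log2 ratio of 0.27, and 0.071 with averaged probe sets. Their highest ratio was 1.02 for Pdgfra, a fibroblast receptor gene, given by the brightest of its 3 probe sets alone. The 6 lower markers were Thy1 (-0.54), Dpt (-0.30), Sparc (-0.25), Lum (-0.22), Col6a2 (-0.13) and Mfap2 (-0.12). Endothelial markers were higher in 8 of 10, adipocyte markers in 5 of 8, and cartilage and bone markers in 4 of 6, where the defining cartilage genes Col2a1 and Matn1 were at the floor. The adipocyte (62.5%) and cartilage and bone (66.7%) shares rest on few genes and lie near that of all measured genes. Acan and Chad of the cartilage list were above the floor on 1 array each, so the floor set their direction. The same holds for Krt34 of the hair follicle markers and Actn2 of the skeletal muscle markers, above the floor on the knockout array alone. Melanocyte markers were higher in 1 of 5, with Tyr and Mitf at the floor, and Schwann cell and nerve markers in 1 of 6, with S100b at the floor.

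Epidermal keratinocyte markers were lower in 10 of 16 measured, with a median log2 ratio of -0.08 and summed signals of 255765 in knockout and 230102 in wild type skin. The sum was higher in the knockout although most of the genes were lower. The targeted gene could not check the genotype labels. The Krt5 signal was 81.2 in knockout and 46.6 in wild type skin, Krt14 read 41.6 in knockout and 27.0 in wild type skin, and Krt15 read 7.20 in knockout and 12.9 in wild type skin, all under the floor.

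How far the widest differences depend on the treatment of dim signals was examined for the 5 genes at least 1.5-fold higher and for Hoxa2. Pax4, En1, Dlx5 and Tbx6 have 1 plain probe set each and lay above the floor on both arrays. Only the pseudocount, quantile normalization and the lowess correction could therefore change their ratios. Pax4 and En1 stayed past 1.5-fold with each of these, while Dlx5 and Tbx6 fell short with each. Their other alternatives that gave a value return the main ratio by construction. Hoxd8 stayed past 1.5-fold with the same alternatives, and fell short with the mean over probe sets. No alternative changed the sign of any of the 6.

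**Figure D5:**
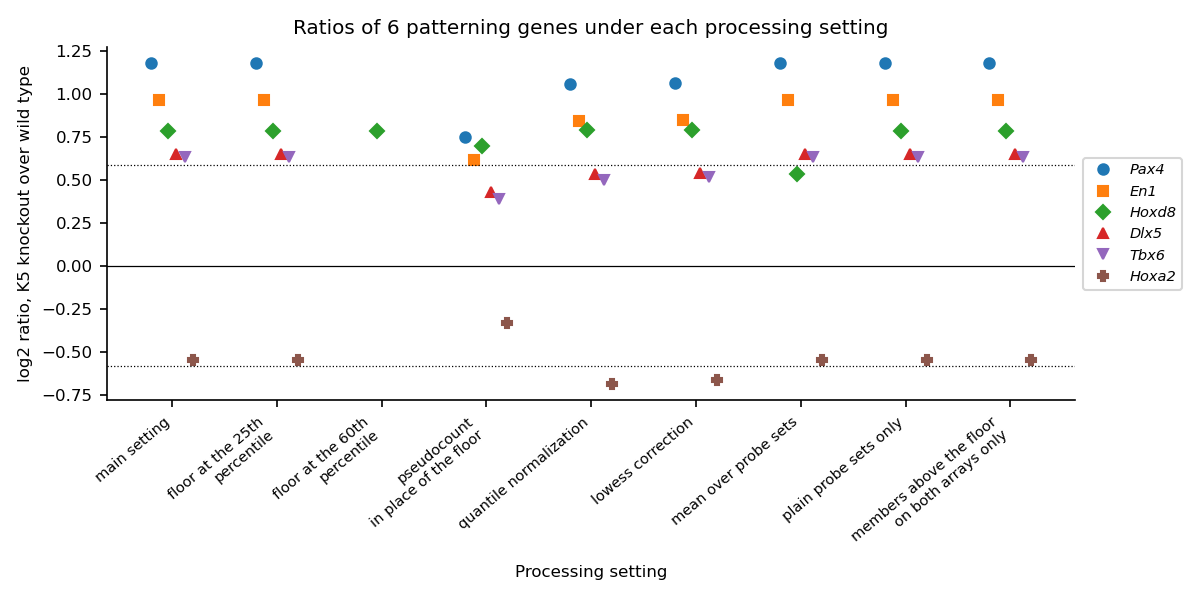
The log2 ratio of knockout over wild type (vertical) of Pax4, En1, Hoxd8, Dlx5, Tbx6 and Hoxa2 in the main setting and in each alternative (horizontal), with dotted lines at 1.5-fold in either direction. At the 60th percentile floor Hoxd8 alone has a value, and the pseudocount brings Dlx5 and Tbx6 to 0.43 and 0.39.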

How the data were processed

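RNA pools of K5 knockout and wildtype newborn skin (6 animals each, 2 µg of total RNA labelled with biotin, per the labels' protocols) were read on 1 array each. The deposited values are intensities on a linear scale, 1 per probe set, made with MAS5 per the submitters' processing notes; its version, target level and presence calls are not given in the sources used here. Knockout skin reached 67511 and wild type skin 57173, and the lowest value was 0.1 in each. The 66 control probe sets were left out, which left 12422, of which 10833 have 1 gene symbol, 396 several and 1193 none.

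Both arrays were brought to a common trimmed mean (2% cut at each end, factors 1.0001 and 0.9999), values under the 40th percentile were raised to it, and log2 was taken. A gene was represented by its probe set with the highest mean. With 1 array per group no test was run; the number of arrays limits the precision. Genes were named by this rule: every measured member, and in the regulator lists those past 1.5-fold, at most 3 per direction. Ezh2, Bmi1, Shh, Gli1, Pdgfra and the basal keratins were named for their role. The members and lists were chosen with earlier results of these data known. Promoters were picked after the values were seen, and protein sequences were not used here. The calculation was run on simulated data with seeded changes larger than those of the members. They were placed in bright genes with 1 probe set, so this run does not bear on dim genes or on differences near 1.5-fold. Python 3.11.15, numpy 2.4.6, pandas 2.3.3 and statsmodels 0.14.6 were used. Alternatives covered the floor, a pseudocount of the size of the floor in its place, quantile and lowess normalization and the choice of probe sets. All 80 member symbols matched a RefSeq gene table of GRCm38.p6 by Entrez identifier, which served for chromosomes.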

Additional observations from a re-analysis of the deposited data

How the results depend on the processing

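The number of arrays and the low signals limit these results: with 1 array per group no replicate can be left out, and the floor decides which dim genes count. No paired analysis was possible because each group holds 1 array. With the floor at the 25th percentile (86.9), 63 members were measured with a median log2 ratio of 0.24, 4 were at least 2-fold higher and 1 lower, and 11 were at least 1.5-fold higher and 4 lower; over all 7061 genes measured at that floor the median was 0.055, 2.9% were at least 2-fold higher and 1.33% lower, and 11.2% were at least 1.5-fold higher and 6.37% lower. Medians there were 0.063 for melanocyte, -0.025 for Schwann cell and 0.54 for macrophage markers. With the floor at the 60th percentile (659.7), 17 members were measured. At least 2-fold, 0 were higher and 0 lower, where the shares over all genes were 1.03% and 0.445%. At least 1.5-fold higher was 1 member (5.11% over all genes). Medians at that floor were 0.20 for Hox genes, -0.21 for BMP, 0.014 for Wnt and -0.0074 (the opposite sign) for other homeobox genes. They were 0.34 for hair follicle and 0.011 for endothelial markers. With the pseudocount, 0 members were at least 2-fold higher (0.653% over all genes) and 3 at least 1.5-fold higher (4.07%), and hair follicle markers were at 0.32. Quantile normalization gave 3 members at least 1.5-fold higher and 1 lower, where the shares over all genes were 6.09% and 5.78%. It put hair follicle markers at 0.38 and the median of all measured genes at -0.0037, in place of 0.04. The lowess correction gave 3 higher and 1 lower at 1.5-fold, where the shares over all genes were 6.07% and 5.79%. The mean over probe sets gave 0.071 for dermal and -0.0048 for Schwann cell markers, and plain probe sets gave 0.54 for macrophage markers. The cause of these shifts was not tested, beyond the number of genes that each floor admits. The other 183 counts and medians under these alternatives stayed within 1.5 times the count or within 1 standard error of the median over the genes of the list. Among them are medians near 0 that changed sign. The Hox median of 0.08 was -0.022 with quantile normalization and -0.0033 with the lowess correction. The retinoic acid median of 0.04 was -0.038 and -0.017, in the same order.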

Other observations

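Several patterning genes at the floor on both arrays had signals that differed between the pools, and they enter the counts only if the floor is lowered to the 25th percentile (86.9 signal units). Pax3, a factor of muscle and pigment cell precursors, read 244.3 in knockout skin and 89.1 in wild type skin, which at that floor is a ratio of 1.46 on the log2 scale. Barx1, known from tooth and stomach development, read 237.7 in knockout and 40.5 in wild type skin, a bound of 1.45, from an f probe set, while its plain probe set read 18.1 in knockout and 16.6 in wild type skin. Six4, a muscle factor, was divided: a probe set read 225.0 in knockout and 59.5 in wild type skin, and another read 49.7 in knockout and 203.6 in wild type skin.

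Lower in the knockout at that floor were Msx3, with 80.7 in knockout and 222.6 in wild type skin, Hoxb3, with 129.3 in knockout and 224.7 in wild type skin (-0.80), Hoxc5, with 108.5 in knockout and 172.0 in wild type skin (-0.66), and Dlx6os2 (-0.72). Hoxb13, a posterior gene, was higher, with 167.0 in knockout and 82.6 in wild type skin, a bound of 0.94, and Meis2 was at 0.88. These genes were singled out after their values were seen, and signals this low carry little information in MAS5.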
